A study of Marchantia polymorpha and Lactuca sativa with 27 samples.

Results

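MpNLA (Mp4g03460) is a gene of the liverwort Marchantia polymorpha, named after NLA of Arabidopsis, and is 1 of 19355 genes in the count table. It was followed in all 18 Marchantia libraries. The gene was chosen for its measured values in these same libraries, where its level differed between the wild-type libraries labelled no phosphate and those labelled no nitrate. Its levels and differences are therefore given as a description, with their errors and with no test.

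The libraries were poly(A)-selected, directional RNA-seq libraries from whole plants. Gemmalings (young plants that develop from gemmae, the asexual propagules) aged 7 days were kept for a further 5 days in liquid Yamagami medium. The Mpwrky10 line, labelled as a mutant of the transcription factor gene MpWRKY10, gave 3 groups: medium labelled no phosphate (0 mM), medium labelled no nitrate (0 mM) and full medium (2 mM phosphate, 10 mM nitrate). Wild-type Tak-1 plants gave the same 3 groups, and each of the 6 groups held 3 libraries. The kind of mutation, and whether the line is a single clone, are not given in the labels. Library totals ran from 18165419 to 25544702 counts. On the first axis of a principal component analysis (43.5% of the variance), replicate 1 of the wild-type no-nitrate group had a score of 18.6 and its partners 43.5 and 39.3, and replicate 3 of each full-medium group also lay away from its partners. Mpwrky10 libraries were spread too, between -3.60 and 23.0 under the label no phosphate, and at 19.2, 32.9 and 21.5 under no nitrate.

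In Arabidopsis, NLA is a ubiquitin ligase that joins an SPX domain, which senses inositol pyrophosphates as a sign of the cell's phosphate status, to a RING domain, which passes ubiquitin to a target. Its known targets there are phosphate importers of the PHT family and a nitrate transporter of the NPF family, which are removed from the membrane once tagged. The Arabidopsis gene takes its name from mutants that fail to adapt to low nitrogen, and it acts at the crossing of phosphate and nitrogen supply. PTB genes, by contrast, encode sodium-coupled phosphate importers of algae and early land plants, a different family from the PHT importers on which NLA is known to act.

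MpNLA was highest in the libraries labelled no phosphate and lowest in those labelled no nitrate, in both genotypes. Levels are CPM, which are counts scaled to library sizes adjusted by TMM. In Mpwrky10 plants, the 3 libraries labelled no phosphate had 7.84, 13.1 and 14.3 CPM, those labelled no nitrate had 2.76, 3.26 and 1.58 CPM, and those in full medium had 3.21, 4.28 and 4.99 CPM. Every Mpwrky10 library labelled no phosphate was above every other Mpwrky10 library, and the no-nitrate and full groups overlapped. In wild-type plants, the libraries labelled no phosphate had 8.93, 9.51 and 8.24 CPM, those labelled no nitrate had 1.76, 1.23 and 0.855 CPM, and those in full medium had 2.47, 2.16 and 2.57 CPM. The 3 wild-type groups did not overlap.

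**Figure D1:**
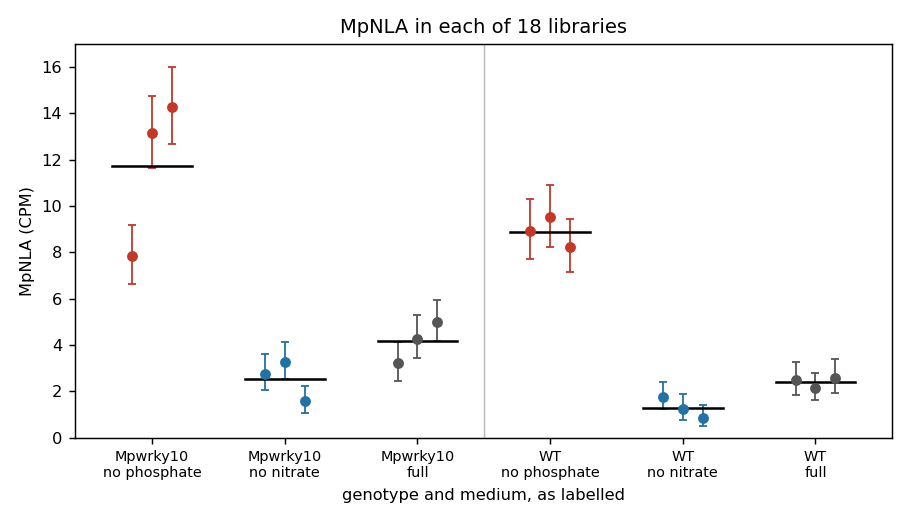
MpNLA level in CPM (linear axis from 0) in each library, by genotype and labelled medium. Points are libraries, with exact Poisson 95% intervals that cover counting error only, and black lines are group means; both no-phosphate groups lie above 7 CPM and all other libraries below 5 CPM.

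These levels rest on modest counts. A total of 1976 reads fell on MpNLA, with 16 reads in the lowest library (wild type, labelled no nitrate, replicate 3) and 289 in the highest (Mpwrky10, labelled no phosphate, replicate 3). The exact Poisson 95% interval of the lowest library was 0.489 to 1.39 CPM and that of the highest was 12.7 to 16.0 CPM. Mpwrky10 replicate 1 labelled no phosphate had 152 reads, with an interval of 6.64 to 9.19 CPM that lay below the intervals of replicates 2 and 3, so these replicates differed by more than counting error. At 7.84 CPM it was also below all 3 wild-type libraries of the same label, the lowest of which had 8.24 CPM. The coefficient of variation among replicates was 29.2%, 34.1% and 21.6% in Mpwrky10 libraries labelled no phosphate, labelled no nitrate and in full medium. In the wild type it was 7.14% under the label no phosphate, 35.3% under no nitrate and 8.92% in full medium. In the fit across all genes, the biological coefficient of variation of MpNLA was 0.202, against a median of 0.0818 over all tested genes.

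Ordered by group mean, Mpwrky10 labelled no phosphate came first, at 11.7 ± 3.43 CPM (SD, n = 3 here and for each mean in this paragraph). Wild type labelled no phosphate followed at 8.90 ± 0.636 CPM, and these neighbours overlapped. Mpwrky10 in full medium came next at 4.16 ± 0.900 CPM and did not overlap the group above it, with a ratio of means of 2.14 between them. Mpwrky10 labelled no nitrate had 2.53 ± 0.865 CPM and wild type in full medium had 2.40 ± 0.214 CPM, and neither was separated from the group above it. Wild type labelled no nitrate was last at 1.28 ± 0.453 CPM, with no overlap with the wild type in full medium. In whole plants, fewer cells of a type and less RNA per cell cannot be told apart.

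Within each genotype the pair of stress media was the widest apart. In Mpwrky10 plants, MpNLA was 4.63-fold higher in libraries labelled no phosphate than in those labelled no nitrate (log2 2.21, SE 0.263). The groups did not overlap, which held for 37.5% of the 13016 genes tested in this comparison. Set against full medium, the Mpwrky10 log2 difference was 1.49 (SE 0.248) under the label no phosphate, again without overlap (44.4% of all genes), and -0.72 (SE 0.272) in those labelled no nitrate, with overlap (47.3% of all genes did not overlap). Wild-type plants had a 6.84-fold higher level in libraries labelled no phosphate than in those labelled no nitrate (log2 2.77, SE 0.286), and 49.4% of all genes had no overlap between those groups. Against full medium the wild-type log2 difference was 1.89 (SE 0.263) in the libraries labelled no phosphate and -0.88 (SE 0.310) in those labelled no nitrate, without overlap in either, as for 60.6% and 49.6% of all genes. The contrasts against full medium share the full-medium libraries of a genotype. The median log2 difference over all genes lay between -0.01 and 0.03 in all 9 comparisons.

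Set among all 13016 genes, the difference between the stress media ranked 145th by size in the wild type and 248th in Mpwrky10. Among genes higher in the libraries labelled no phosphate, it ranked 31st in the wild type and 51st in Mpwrky10. The smaller decrease against full medium in the libraries labelled no nitrate ranked 153rd among lower genes in the wild type and 361st in Mpwrky10.

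Between genotypes, the MpNLA mean was higher in Mpwrky10 than in wild type in each medium as labelled. Under the label no phosphate the log2 difference was 0.40 (SE 0.236; 95% interval -0.06 to 0.87), and the groups overlapped (31.1% of all genes did not). Under the label no nitrate it was 0.97 (SE 0.311; interval 0.36 to 1.58), and the groups overlapped, since Mpwrky10 replicate 3 at 1.58 CPM lay under wild-type replicate 1 at 1.76 CPM (36.6% of all genes had no overlap). In full medium it was 0.80 (SE 0.271; interval 0.27 to 1.34), without overlap (18.9% of all genes). The difference of responses, Mpwrky10 minus wild type, was -0.40 (SE 0.359) for no phosphate over full medium, 0.16 (SE 0.411) for no nitrate over full medium and -0.56 (SE 0.390) for no phosphate over no nitrate. Each of these lay within 2 SE of 0 on the log2 scale, which is given as a description and not as a test. MpWRKY10 transcript was present in all Mpwrky10 libraries, at 25.5 to 28.9 CPM (no phosphate), 34.4 to 37.6 CPM (no nitrate) and 14.9 to 21.6 CPM (full medium), so it does not check the genotype labels. Wild-type libraries had 28.7 to 31.3 CPM of it (no phosphate), 21.7 to 26.9 CPM (no nitrate) and 17.2 to 22.4 CPM (full medium).

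**Figure D2:**
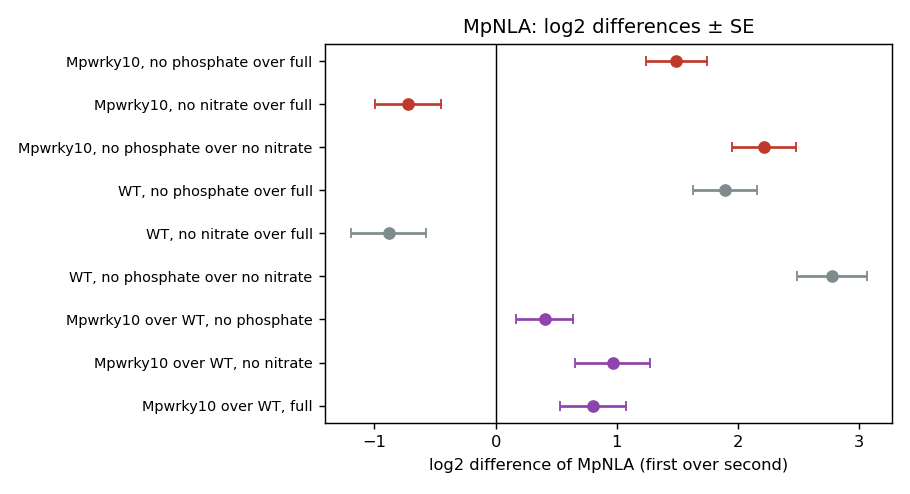
Log2 difference of MpNLA in the 9 comparisons, first group over second, with bars of 1 SE from the fit of all 18 libraries. The media comparisons within Mpwrky10 and within wild type lie on the same side of 0 for each pair of media, from -0.88 to 2.77, and the genotype differences lie between 0.40 and 0.97.

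Without wild-type replicate 1 labelled no nitrate and replicate 3 of both full-medium groups, the wild-type log2 difference between no phosphate and no nitrate was 3.11 (SE 0.339), no nitrate over full medium was -1.17 (SE 0.393), and Mpwrky10 over wild type in the libraries labelled no nitrate was 1.28 (SE 0.368). In the other comparisons that used them it was between -0.59 and 1.94, with the direction kept. Between the stress media in Mpwrky10, where each library was left out in turn, the log2 difference was lowest without replicate 3 labelled no nitrate, at 1.96, and highest without replicate 2 of that group, at 2.44.

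The other genes with an SPX domain that the name table lists, MpSPX and MpVPT, moved the other way between the stress media. These genes were picked by name and were tested with edgeR's quasi-likelihood test, with Benjamini-Hochberg adjustment over all 13016 genes and a call at an adjusted p under 0.05. SPX proteins hold back the PHR transcription factors when phosphate is ample, and VPT proteins, known as PHT5 in Arabidopsis, store phosphate in the vacuole. MpSPX had 80.9, 71.5 and 80.8 CPM in Mpwrky10 libraries labelled no phosphate and 96.1, 113 and 104 CPM in those labelled no nitrate. The wild type had 74.2, 69.7 and 71.7 CPM in libraries labelled no phosphate, against 127, 150 and 126 CPM in those labelled no nitrate. The groups did not overlap in either genotype, and MpSPX was lower in the libraries labelled no phosphate by log2 -0.43 (SE 0.0773, adjusted p = 0.000485) in Mpwrky10 and -0.90 (SE 0.0773, adjusted p = 1.14e-07) in wild type. The response was smaller in Mpwrky10, with a difference of log2 0.47 (SE 0.109, adjusted p = 0.0226), where 3.69% of all genes differed in response; the call was lost when any of 4 libraries was left out. For no nitrate over full medium the difference of the MpSPX response was log2 -0.56 (SE 0.109, adjusted p = 0.0113), and 2.13% of all genes differed.

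MpVPT had 70.4, 78.7 and 75.9 CPM in Mpwrky10 libraries labelled no phosphate, against 104, 122 and 115 CPM in those labelled no nitrate (log2 -0.60, SE 0.116, adjusted p = 0.00127). In wild-type libraries it had 85.6, 77.6 and 80.4 CPM under the label no phosphate, against 124, 159 and 148 CPM under the label no nitrate (log2 -0.82, SE 0.116, adjusted p = 5.22e-05). Against full medium both genes rose in the libraries labelled no nitrate in both genotypes, where MpNLA had its lowest means. MpVPT also rose over full medium in the libraries labelled no phosphate, where MpSPX was not called (log2 0.39, SE 0.118, adjusted p = 0.0148 in Mpwrky10; log2 0.46, SE 0.117, adjusted p = 0.00406 in wild type). Both were lower in Mpwrky10 than in wild type in the libraries labelled no nitrate (log2 -0.36, adjusted p = 0.00278 for MpSPX; log2 -0.34, adjusted p = 0.0485 for MpVPT), where the MpNLA mean was higher in Mpwrky10.

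Of 8 PTB phosphate importer genes, 7 passed the filter on low counts, and MpPTB6 did not (at most 0.267 CPM). Members that passed through the one medium where they are high had to differ, so the counts describe the list and support nothing about it. In libraries labelled no phosphate against no nitrate, 1 was higher and 6 lower in Mpwrky10 (11.4% and 15.3% of all genes) and 0 were higher and 6 lower in wild type (14.6% and 17.5% of all genes), with a median log2 difference of -4.72 in Mpwrky10 and -5.00 in wild type. These medians are the same when the 3 genes with no read in the libraries labelled no phosphate are set at their bound. Summed over the 7 genes, Mpwrky10 libraries had 34.1, 30.6 and 27.0 CPM when labelled no phosphate, 209, 168 and 304 CPM when labelled no nitrate and 48.7, 44.7 and 37.1 CPM in full medium. The wild-type sums were 34.4, 34.9 and 31.8 CPM when labelled no phosphate, 343, 441 and 508 CPM when labelled no nitrate, and 27.3, 38.4 and 46.7 CPM in full medium. The summed importers were highest in the groups with the lowest MpNLA means, without overlap with the other media of that genotype.

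MpPTB8 had 22.9, 22.3 and 19.7 CPM in wild-type libraries labelled no phosphate, against 261, 343 and 408 CPM in those labelled no nitrate (log2 -3.96, SE 0.266, adjusted p = 2.71e-07). MpPTB5 had no read in the wild-type libraries labelled no phosphate, against 8.55, 17.9 and 17.7 CPM in those labelled no nitrate, which is at least 325-fold lower with a floor of 3 counts over the group. MpPTB7 was the exception, at 11.6 CPM on average in wild-type libraries labelled no phosphate and 9.23 CPM in those labelled no nitrate (log2 0.34, SE 0.218, adjusted p = 0.268), and in Mpwrky10 it was higher under the label no phosphate than under no nitrate (log2 0.63, SE 0.225, adjusted p = 0.0447), a call lost under 7 of 13 alternatives, the replicate block and leaving out any of 4 libraries among them. MpPTB1 to MpPTB6 carry consecutive locus numbers, and reads may have been divided among such close copies.

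Against full medium, 1 PTB gene was higher and 1 lower in Mpwrky10 libraries labelled no phosphate (20.3% and 16.8% of all genes), and 6 were higher and 0 lower in those labelled no nitrate (23.2% and 16.2% of all genes). Wild-type plants had 1 higher and 0 lower in libraries labelled no phosphate (26.3% and 22.9% of all genes), and 7 were higher and 0 lower in those labelled no nitrate (20.6% and 13.9% of all genes). Between genotypes, 0 were called in the libraries labelled no phosphate (2.66% of all genes were higher and 3.95% lower in Mpwrky10) or in full medium (2.07% and 2.17%). Under the label no nitrate 6 were lower in Mpwrky10 and 0 higher, against 9.59% of all genes higher and 9.82% lower.

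**Figure D3:**
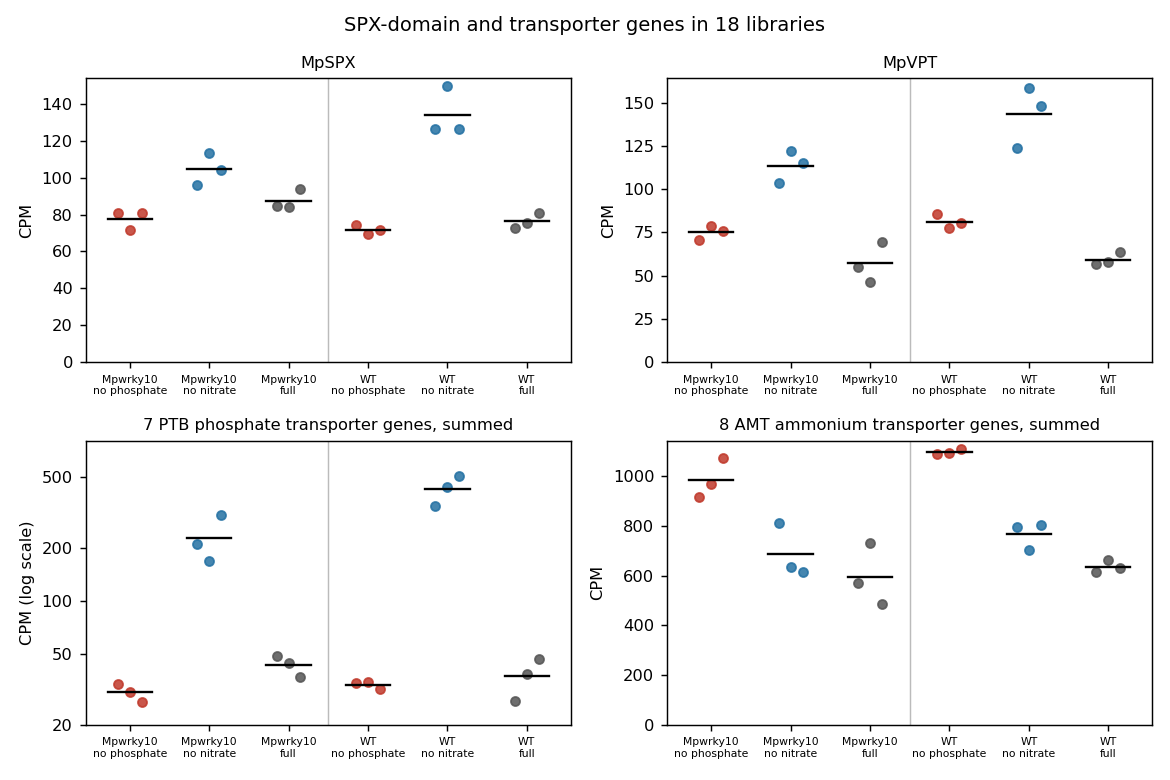
Level in CPM by library of MpSPX, MpVPT, the summed PTB phosphate transporter genes (log axis) and the summed AMT ammonium transporter genes, by genotype and labelled medium; points are libraries and lines are group means. MpSPX, MpVPT and the PTB sum are highest in the libraries labelled no nitrate, and the AMT sum is highest in those labelled no phosphate.

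AMT proteins carry ammonium into cells, and part of the AMT family was highest in the same medium as MpNLA. Of 17 named genes 8 passed the filter, and the other 9 reached at most 0.0534 CPM. Members that passed through a medium where they are high had to differ, so these counts too describe the list and support nothing about it. MpAMT1.5, for example, averaged 0.12 CPM in wild type and 0.0168 CPM in Mpwrky10 in full medium. With no phosphate set against no nitrate, 4 rose and 0 fell in Mpwrky10 (median log2 1.20; 11.4% and 15.3% of all genes) and 5 rose and 0 fell in wild type (median log2 1.56; 14.6% and 17.5% of all genes). MpAMT2.1 was not among them, with means of 4.22 CPM under the label no phosphate and 5.34 CPM under no nitrate in wild type (log2 -0.33, adjusted p = 0.738). Against full medium, 7 rose in Mpwrky10 and 8 in wild type under the label no phosphate (20.3% and 26.3% of all genes), and 3 rose in Mpwrky10 and 6 in wild type under the label no nitrate (23.2% and 20.6% of all genes), with 0 lower in each. The AMT2 genes MpAMT2.4 (log2 5.66, adjusted p = 9.56e-05) and MpAMT2.1 (log2 5.03, adjusted p = 0.000973) were among those that rose in wild type labelled no nitrate. The sum over the 8 genes was mostly MpAMT1.2, at 745 CPM in wild type labelled no phosphate against 696 CPM labelled no nitrate (adjusted p = 0.614). It was 916, 970 and 1072 CPM in Mpwrky10 libraries labelled no phosphate, 811, 636 and 614 CPM in those labelled no nitrate and 570, 732 and 485 CPM in full medium. Wild-type sums were 1090, 1093 and 1110 CPM under the label no phosphate, 794, 703 and 805 CPM under no nitrate, and 614, 661 and 631 CPM in full medium, with no overlap between the 3 media.

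MpAMT1.4 had 177, 190 and 148 CPM in Mpwrky10 libraries labelled no phosphate, against 31.5, 24.7 and 7.68 CPM in those labelled no nitrate (log2 3.01, SE 0.476, adjusted p = 0.000597). Wild-type libraries labelled no phosphate had 257, 270 and 239 CPM, against 39.6, 30.0 and 31.0 CPM in those labelled no nitrate (log2 2.92, SE 0.463, adjusted p = 0.000386). MpAMT1.3 had 12.7, 12.7 and 9.65 CPM in wild-type libraries labelled no phosphate, against 0.508, 2.19 and 1.18 CPM in those labelled no nitrate. Between genotypes, in the libraries labelled no phosphate, 0 AMT genes were higher and 4 lower in Mpwrky10 (2.66% and 3.95% of all genes), among them MpAMT1.3 (log2 -2.63, SE 0.570, adjusted p = 0.0129), while the MpNLA mean was higher there.

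Taken by their labels, the summed phosphate importers, MpSPX and MpVPT were thus highest in the libraries labelled no nitrate. Over full medium, 7 of 8 ammonium importers rose in Mpwrky10 and 8 of 8 in wild type under no phosphate. Under no nitrate 3 of 8 rose in Mpwrky10 and 6 of 8 in wild type. For no phosphate over no nitrate, 4 of 8 rose in Mpwrky10 and 5 of 8 in wild type, and 0 fell. Whether the 2 stress labels could have been exchanged was not tested. If they were, every direction given here between no phosphate and no nitrate, that of MpNLA included, would turn, so the media are named as labelled throughout.

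Of 38 nitrate, peptide and anion transport genes (the NPF family, to which the NLA-targeted nitrate transporter of Arabidopsis belongs, with MpCLC1 and the channel genes MpSLAC1 and MpSLAC2), 22 passed the filter and the other 16 reached at most 0.654 CPM. For no phosphate over no nitrate, 3 were higher and 2 lower in Mpwrky10 (median log2 0.04), or 13.6% and 9.09% of the 22, against 11.4% and 15.3% of all genes. In wild type 7 were higher and 2 lower (median log2 0.10), or 31.8% and 9.09%, against 14.6% and 17.5% of all genes. MpNPF5 was among those higher, with 7.84, 9.47 and 7.46 CPM in wild-type libraries labelled no phosphate, against 2.87, 3.47 and 4.44 CPM in those labelled no nitrate (log2 1.20, SE 0.192, adjusted p = 0.000101). MpNPF14 was lower, at 50.3, 40.6 and 46.1 CPM in wild-type libraries labelled no phosphate against 88.6, 71.0 and 77.5 CPM in those labelled no nitrate (log2 -0.79, SE 0.124, adjusted p = 0.000134). MpNPF24 had no read in any Mpwrky10 library, against 4.73 to 17.1 CPM in the wild-type libraries.

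Among 17 named genes known for their part in phosphate shortage, 15 passed the filter. Between the stress media, no phosphate over no nitrate, 4 were higher and 5 lower in Mpwrky10, and 3 were higher and 4 lower in wild type (median log2 -0.05 and -0.17), against 11.4% and 15.3% of all genes in Mpwrky10 and 14.6% and 17.5% in wild type. The members that were lower include MpGDPD, a phosphodiesterase that breaks down the products of phospholipids, with 76.9, 77.0 and 84.7 CPM in wild-type libraries labelled no phosphate against 478, 504 and 498 CPM in those labelled no nitrate (log2 -2.63, SE 0.221, adjusted p = 1.8e-06). MpSQD, of sulfolipid synthesis, was also lower there (log2 -1.17, SE 0.0962, adjusted p = 1.04e-07). MpLPR7, a relative of the multicopper oxidases that shape root growth at low phosphate in Arabidopsis, was higher like MpNLA (wild type labelled no phosphate 38.5, 38.3 and 38.1 CPM, labelled no nitrate 19.8, 15.1 and 16.2 CPM; log2 1.16, SE 0.158, adjusted p = 4.4e-05). Unlike MpNLA, MpLPR7 was lower than in full medium in wild-type libraries labelled no phosphate (log2 -0.71, SE 0.148, adjusted p = 0.000895).

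MpNLA is named as a ubiquitin ligase, and 12 other genes of the ubiquitin system were named, of which 9 passed the filter and 3 had no read. With no phosphate set against no nitrate, 2 rose and 0 fell in each genotype, with median log2 differences of 0.07 in Mpwrky10 and 0.05 in wild type. That is 22.2% of the 9, where 11.4% of all genes rose in Mpwrky10 and 14.6% in wild type. In both these were MpBTB, a BTB-domain protein, and MpSKP2A, an F-box protein. MpBTB had 45.4, 45.2 and 48.5 CPM in wild-type libraries labelled no phosphate against 29.2, 27.3 and 27.0 CPM in those labelled no nitrate (log2 0.74, SE 0.154, adjusted p = 0.00165). MpCOP1, a RING ligase of light signalling, was lower in both stress media than in full medium in each genotype, at 41.8 CPM on average in wild-type libraries labelled no phosphate, 48.4 CPM in those labelled no nitrate and 82.9 CPM in full medium. Between those stress media its difference was not called (log2 -0.21, SE 0.0811, adjusted p = 0.0506).

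All 21 autophagy genes, whose products recycle cell contents, passed the filter. For no phosphate over no nitrate, 5 rose and 0 fell in Mpwrky10 and 9 rose and 1 fell in wild type, with medians of log2 0.12 and 0.19, where 11.4% of all genes rose and 15.3% fell in Mpwrky10, and 14.6% rose and 17.5% fell in wild type. MpATG18c had 30.3, 29.8 and 24.3 CPM in Mpwrky10 libraries labelled no phosphate, against 20.8, 18.6 and 17.3 CPM in those labelled no nitrate (adjusted p = 0.000434). Wild-type libraries had 19.3, 19.8 and 20.6 CPM of it under the label no phosphate, against 14.8, 12.6 and 14.7 CPM under the label no nitrate (adjusted p = 0.00109). MpATG18a was the wild-type member that fell, at 113, 110 and 108 CPM under the label no phosphate, against 137, 136 and 132 CPM under the label no nitrate.

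Of 14 WRKY transcription factor genes 13 passed the filter. Between the stress media, no phosphate over no nitrate, 0 were higher and 8 lower in Mpwrky10 (median log2 -0.39; 11.4% and 15.3% of all genes). The targeted gene MpWRKY10 is part of this list and was 1 of these 8 (log2 -0.39, SE 0.116, adjusted p = 0.0169). In wild type 2 were higher and 3 lower (median log2 -0.07), 15.4% and 23.1% of the 13, close to the 14.6% and 17.5% of all genes. Those higher in the wild type were MpWRKY10 itself (log2 0.34, SE 0.117, adjusted p = 0.0304) and MpWRKY14 (log2 0.87, SE 0.314, adjusted p = 0.0448), and both lost the call when replicate 1 of the wild-type no-nitrate group or any of several other libraries was left out (log2 0.29 for MpWRKY10 and 0.74 for MpWRKY14 without that replicate). Under the label no nitrate 9 were higher and 0 lower in Mpwrky10 than in wild type (9.59% and 9.82% of all genes), among them MpWRKY8, with 38.6, 42.9 and 45.6 CPM in Mpwrky10 against 30.6, 32.3 and 30.8 CPM in wild type (log2 0.44, SE 0.104, adjusted p = 0.00565). MpWRKY10 itself was another of these 9 (log2 0.60, SE 0.117, adjusted p = 0.00138).

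Under the label no phosphate, where MpNLA was highest, all 5 Rubisco and chlorophyll genes fell below full medium in Mpwrky10 and in wild type, with medians of log2 -0.55 and -0.64 (16.8% and 22.9% of all genes fell). Under the label no nitrate, where MpNLA was lowest, 5 of 5 fell in Mpwrky10 and 4 of 5 in wild type. The medians there were log2 -0.35 and -0.20 (16.2% and 13.9% of all genes fell). For no phosphate over no nitrate, 1 was higher and 2 lower in Mpwrky10 (11.4% and 15.3% of all genes), and 0 were higher and 4 lower in wild type (14.6% and 17.5% of all genes). MpRBCS, the small subunit of Rubisco, had 163, 129 and 166 CPM in Mpwrky10 libraries labelled no phosphate, 313, 309 and 356 CPM in those labelled no nitrate and 466, 388 and 441 CPM in full medium. Of the cell type markers, the 3 for green thallus summed to 467 to 546 CPM in Mpwrky10 libraries labelled no phosphate, 715 to 800 CPM in those labelled no nitrate and 890 to 1031 CPM in full medium. Wild-type sums were 462 to 495 CPM under the label no phosphate, 760 to 802 CPM under no nitrate and 877 to 988 CPM in full medium. MpGCAM1, a marker of gemma cups and meristem, was like MpNLA highest in wild-type libraries labelled no phosphate, at 5.18 to 5.81 CPM, with 2.62 to 3.70 CPM in those labelled no nitrate and 1.53 to 2.37 CPM in full medium. The part of green tissue and of gemma cups in the MpNLA levels was not tested.

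In Mpwrky10 MpGCAM1 had 2.72 to 5.62 CPM under the label no phosphate, 2.78 to 3.62 CPM under no nitrate and 1.01 to 1.89 CPM in full medium, with overlap between the stress media. The 23 oil body cell markers summed to 296 to 305 CPM in Mpwrky10 libraries labelled no phosphate, 291 to 298 CPM in those labelled no nitrate and 322 to 365 CPM in full medium, with 10 to 13 of the markers at 0 in a group. In the wild type they summed to 347 to 361 CPM under the label no phosphate, 316 to 324 CPM under no nitrate and 339 to 357 CPM in full medium. The sum was mostly MpC4HDZ, at 215 CPM on average over all libraries, and MpMTPSL2 ran from 0.204 to 39.4 CPM. The air pore gene MpNOP1 was between 83.9 and 107 CPM in all libraries. Of the antheridium and sperm genes, MpPRM and MpLC7 had at most 3 counts in any library and MpDUO1 lay between 0.393 and 1.66 CPM. The 5 sporophyte genes of the BELL family summed to at most 1.95 CPM. MpRKD, taken as a marker of archegonium and egg, lay between 114 and 163 CPM, and which cells it came from was not tested.

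The genes whose wild-type profile was most like that of MpNLA were found by the root mean square (RMS) difference of log2(CPM + 1), each gene centred on its mean over the 9 wild-type libraries. Over the 13015 other genes tested the median RMS difference was 0.927, and the closest gene, Mp1g01450, had 0.219. Mp1g01450 and the second closest, Mp3g15460, at 0.238, have no symbol in the name table. Among the 2440 with a symbol, the closest were MpLDPS2 at 0.246, the glycosyltransferase gene MpUGT11 at 0.303 and the class III peroxidase genes MpPOD160 at 0.303 and MpPOD161 at 0.339. MpCYP704-like5, a cytochrome P450, had 0.381, MpPOD149 0.387, MpPOD166 0.408, the dioxygenase MpDOXC30 0.418, the proton pump MpHA14 0.421 and the cytochrome P450 MpCYP94-like 0.423. Close copies among the peroxidase genes can share reads. The choice depends on the measure: 4 of the 10 stayed when all 18 libraries were used and 2 when profiles were divided by their SD.

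The Mpwrky10 libraries were not used to choose them. There, all 10 genes had their highest mean in the libraries labelled no phosphate, as MpNLA did (32.3% of all genes), and for 9 of 10 every such library was above all other Mpwrky10 libraries (7.6% of all genes). The exception was MpUGT11, with 53.4, 36.1 and 23.5 CPM in Mpwrky10 libraries labelled no phosphate, against 18.2, 39.5 and 11.8 CPM in full medium. Their RMS difference from MpNLA over the 9 Mpwrky10 libraries was 0.425 to 0.706, where the median of all genes was 0.848. Some of these profiles rest on few reads. In Mpwrky10 labelled no phosphate, labelled no nitrate and in full medium, MpPOD160 had 19, 3 and 2 reads and MpPOD166 had 57, 13 and 1. Members that passed the filter only through libraries labelled no phosphate had to be high there, so the counts describe these genes and support nothing further. MpCYP704-like5 had the closest profile of the 10 in Mpwrky10, ranking 8th of all genes, with 34.5, 36.7 and 36.6 CPM in Mpwrky10 libraries labelled no phosphate, 19.5, 18.2 and 14.2 CPM in those labelled no nitrate and 19.7, 24.7 and 18.6 CPM in full medium. Mp6g07990, among the 5 closest of any kind, ranked 2nd in Mpwrky10, with an RMS difference of 0.374. The response to the label no phosphate over full medium was smaller in Mpwrky10 than in wild type for MpCYP704-like5 (difference of responses log2 -0.76, SE 0.147, adjusted p = 0.0284), where 0.307% of all genes differed in response; the call was lost under 8 of 18 alternatives, all of them a library left out.

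A lower Mpwrky10 mean in libraries labelled no nitrate than in full medium was found for 6 of the 10. Under the label no phosphate all 10 had a lower mean in Mpwrky10 than in wild type, unlike MpNLA. The choice of these genes on wild-type libraries can favour a lower Mpwrky10 mean there. The share of all genes was not counted for either count, so both are given as a description only. MpPOD160 averaged 0.312 CPM in Mpwrky10 against 4.25 CPM in wild type there, MpHA14 802 CPM in Mpwrky10 against 1004 CPM in wild type, and MpNLA 11.7 CPM in Mpwrky10 against 8.90 CPM in wild type.

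**Figure D4:**
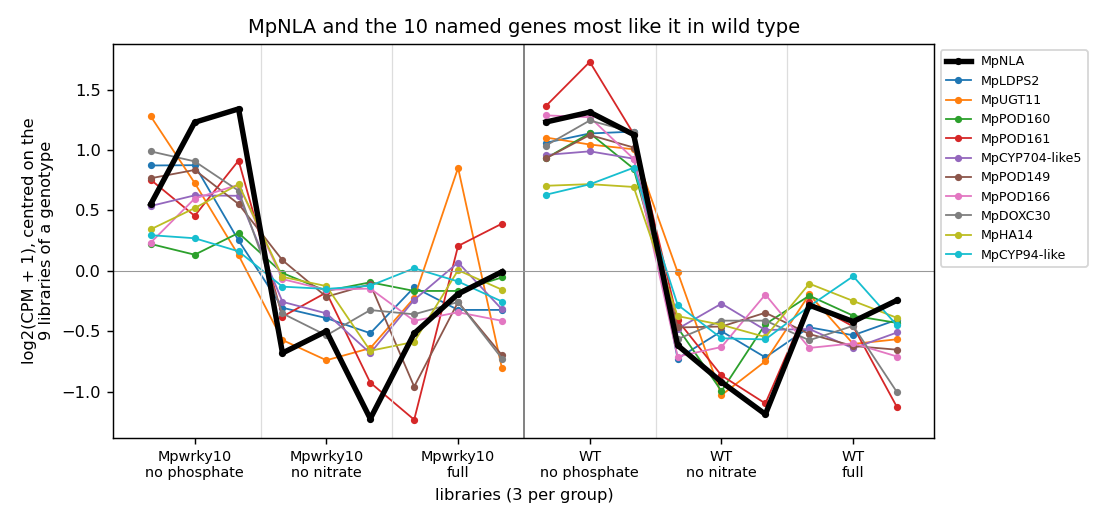
Profiles of MpNLA (thick black line) and the 10 named genes most like it in wild type, as log2(CPM + 1) centred on the 9 libraries of a genotype, over 3 libraries per group. The wild-type side chose the genes; on the Mpwrky10 side the no-phosphate libraries are highest on average for all 10, with MpUGT11 overlapping full medium.

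The 5 loci on each side of MpNLA in the count table were read as its neighbours. Of these 10 loci 8 passed the filter, and Mp4g03430 and Mp4g03470, the next locus after MpNLA with 4 counts in all, did not. Between wild-type libraries labelled no phosphate and no nitrate, 1 of 8 neighbours was called (14.6% of all genes were higher and 17.5% lower), Mp4g03450, which was lower (76.7, 74.5 and 77.0 CPM under the label no phosphate, 99.4, 96.1 and 96.6 CPM under no nitrate; log2 -0.36, SE 0.0733, adjusted p = 0.000962). In Mpwrky10, where 11.4% of all genes were higher and 15.3% lower, 4 were called. MpPTM1 was higher in that comparison (log2 0.26, SE 0.0627, adjusted p = 0.00467), Mp4g03440 was lower (log2 -0.21, SE 0.0669, adjusted p = 0.0245; not called under 5 of 13 alternatives), and both O-methyltransferase genes MpOMT14 and MpOMT15 were lower.

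MpOMT14 had 0.567, 0.925 and 1.23 CPM in Mpwrky10 libraries labelled no phosphate, against 5.57, 24.1 and 5.85 CPM in those labelled no nitrate (log2 -3.69, SE 0.666, adjusted p = 0.001). Under that last label it was higher in Mpwrky10 than in wild type, which had 0.370, 1.46 and 1.28 CPM (log2 3.54, SE 0.662, adjusted p = 0.00204). Against full medium MpFBW2, an F-box gene, rose in the libraries labelled no phosphate, with log2 0.33 (SE 0.0724, adjusted p = 0.00123) in Mpwrky10 and 0.37 (SE 0.0723, adjusted p = 0.000321) in wild type. It rose as well in Mpwrky10 labelled no nitrate (log2 0.37, SE 0.0725, adjusted p = 0.000497) and was not called in wild type there (log2 0.18, SE 0.0732, adjusted p = 0.0635). None of the neighbours in the name table had a span that overlaps MpNLA, and Mp4g03470 is not in that table.

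**Figure D5:**
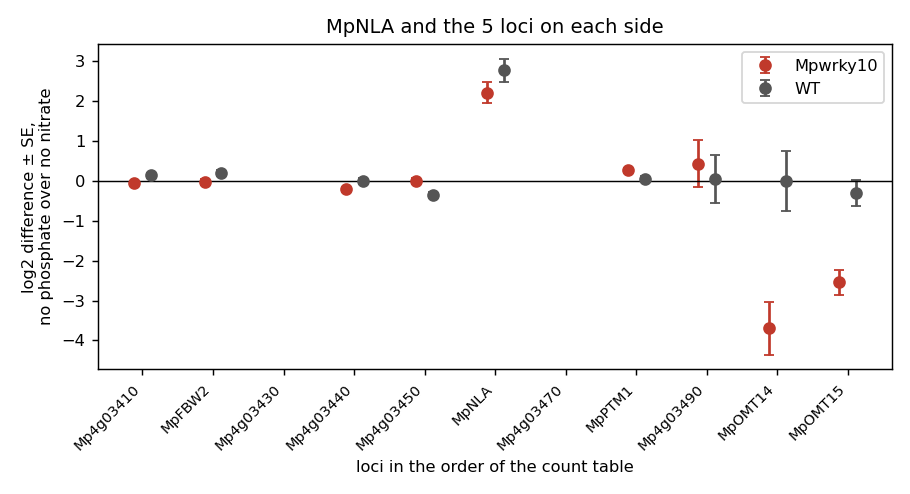
Log2 difference between libraries labelled no phosphate and no nitrate, with bars of 1 SE, for MpNLA and the neighbouring loci that passed the filter, in Mpwrky10 and wild type. MpNLA stands at 2.21 and 2.77, while the largest neighbour difference is that of MpOMT14 in Mpwrky10, at -3.69.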

How the data were processed

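Gene counts came from 18 whole-plant Marchantia libraries in 6 groups of 3, named by the labels. The deposited values were raw read counts per gene, per the file headers and their whole-number values. The submitters' processing notes name STAR 2.7 and DESeq2 without their roles; the counting program, its strand setting and the genome build are not given in the sources used here. Overlapping, antisense and near-identical genes may thus share reads.

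Counts of all libraries entered 1 edgeR 4.0.16 fit (R 4.3.3) with TMM factors of 0.972 to 1.06. filterByExpr kept 13016 of 19355 genes, 2175 of which were at 0 throughout. The two-sided quasi-likelihood F-test (robust) was adjusted by Benjamini-Hochberg over all genes kept and called at 0.05. SE is the log2 difference over the root of F. Differences of response between genotypes were contrasts of the same fit. DESeq2 1.42.0 was an alternative. One count was worth 0.0391 to 0.056 CPM. Poisson intervals and floors cover counting error only. The code was tested on simulated data. Whether replicates were separate cultures is not stated; the p-values then reflect only how far these samples spread, which may be technical. Replicates differed beyond sampling noise (chi-square per degree of freedom 3.55 to 21.2 over genes of at least 20 counts), so none was counted as a copy.

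Names came from a table for assembly MpTak2_v7.1, with 17384 of 18391 entries matched. MpNLA and the 10 gene lists, drawn by symbol, were chosen with earlier results of these data known. Of 133 list genes 101 were tested; the nitrogen assimilation list matched no name. Named genes were MpNLA, MpSPX, MpVPT, up to 4 members of each other list with the smallest adjusted p in wild type labelled no phosphate against no nitrate plus members of other direction, the 10 named genes and 5 of any kind most like MpNLA, and 5 loci on each side. MpPTB7 was added after its values were seen, as the PTB gene not called lower, and MpGCAM1 as a marker. Lettuce libraries were not used here, since no names were paired with their identifiers.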

Additional observations from a re-analysis of the deposited data

Results flagged for a closer look

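The responses to the media were compared between genotypes for 59 genes with values in the text, in 3 comparisons of media that share libraries. The difference of responses, Mpwrky10 minus wild type, passed an adjusted p of 0.05 in edgeR's quasi-likelihood test in 14 cases, each given on the log2 scale. Of all genes, 0.307% passed for no phosphate over full medium, 2.13% for no nitrate over full medium and 3.69% for no phosphate over no nitrate. Many of the 59 genes were picked by their wild-type values, so the count of 14 is not set against these shares. No explanation was tested.

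Between the labels no phosphate and no nitrate, MpSPX (0.47), MpSQD (0.50) and MpGDPD (1.34) were lower under no phosphate in both genotypes, and by less in Mpwrky10. MpGDPD, for example, differed by -1.29 in Mpwrky10 and -2.63 in wild type. MpATG18a (0.40) was lower in wild type, with 0.10 in Mpwrky10 and -0.30 in wild type. MpWRKY10 (-0.74) had -0.39 in Mpwrky10 and 0.34 in wild type. MpOMT15, the O-methyltransferase neighbour of MpNLA, had a difference of -2.24, with -2.55 in Mpwrky10 and -0.31 in wild type. Of genes most like MpNLA in wild type, MpCYP94-like (-2.06) and the unnamed Mp4g05320 (-1.36) had smaller responses in Mpwrky10.

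For no nitrate over full medium, the differences were -0.56 for MpSPX, -1.28 for MpGDPD, -0.46 for MpATG18a, 0.67 for MpWRKY10 and 2.65 for MpOMT15. For no phosphate over full medium, that of MpCYP704-like5 was -0.76. Genes close to MpNLA were chosen on wild-type libraries, so a smaller response in Mpwrky10 is no independent result for them. The same holds between the stress media for list members picked by their wild-type difference there, MpSQD, MpGDPD and MpATG18a among them.

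All 252 values of these differences under the alternatives kept their direction. A total of 68 no longer passed, and 5 of the 14 differences passed under every alternative run, those of Mp4g05320 and of MpSPX and MpATG18a for no nitrate over full medium among them. For no phosphate over no nitrate, MpGDPD and MpCYP94-like each lost the call under 9 of 18 alternatives and MpSQD under 11 of 18. For no nitrate over full medium MpGDPD lost it under 12 of 18.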

How the results depend on the processing

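All 124 MpNLA values under the alternatives (other scaling, no filter, DESeq2, only the groups compared, a prior count of 2, the replicate block, each replicate left out, and the 3 libraries apart left out, the last chosen after seeing the data) kept their direction and moved by less than 1 SD of the replicates. The log2 difference of no phosphate over no nitrate ran from 1.96 to 2.44 in Mpwrky10 and from 2.55 to 3.11 in wild type, that of no nitrate over full medium from -0.95 to -0.47 and from -1.20 to -0.66, and that of Mpwrky10 over wild type from 0.24 to 0.62 in the libraries labelled no phosphate. Counts of called list genes stayed within 1.5 times in 7 of 9 comparisons. For Mpwrky10 over wild type in the libraries labelled no phosphate, 11 of 101 list genes were called, against 18 with the replicate block, 17 with DESeq2 and 20 with only the groups compared in the fit. Leaving out a replicate gave 6 to 13, with 6 without wild-type replicate 1 or Mpwrky10 replicate 3. In the libraries labelled no nitrate 38 were called, and 25 to 36 with a replicate left out, with 25 without Mpwrky10 replicate 2. Of the 10 named genes most like MpNLA, 4 stayed when all 18 libraries were used, 2 when profiles were divided by their SD, and 8 to 10 without a replicate. For 94 calls of named genes between the stress media, 73 held under every alternative, and 81 of 1271 values were no longer called, with 0 reversed. The cause of these changes was not tested. Replicate numbers did not pair the samples: same-numbered libraries deviated together with correlations of -0.28 to 0.286, in no comparison over 0.1 for every pair. With the replicate block the MpNLA log2 difference between the stress media was 2.21 in Mpwrky10 and 2.76 in wild type. Depth limits the low levels most, as 16 to 38 reads in the wild-type libraries labelled no nitrate.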

Other observations

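Within some groups, the library with more MpNLA had a lower summed CPM of the 7 PTB phosphate importer genes. In 4 of 6 groups (Mpwrky10 in each of the 3 media and wild type labelled no nitrate) the order of the 3 libraries by MpNLA was exactly opposite to their order by the PTB sum. It was the same in wild type labelled no phosphate and mixed in wild type in full medium. The sum was mostly MpPTB8, whose own order was not opposite in Mpwrky10 labelled no phosphate (23.9, 16.8 and 19.3 CPM). The order of MpPTB8 was opposite in Mpwrky10 labelled no nitrate and in full medium, and in wild type labelled no nitrate. How often other genes have the opposite order was not counted, and 3 libraries allow few orders. The 4 of 6 groups therefore describe these libraries and support nothing further. In Mpwrky10 libraries labelled no nitrate, the library with 1.58 CPM of MpNLA had 304 CPM of PTB genes and that with 3.26 CPM had 168 CPM. In wild type labelled no nitrate, 0.855 CPM stood beside 508 CPM and 1.76 CPM beside 343 CPM. The library with 1.76 CPM was replicate 1, which lay away from its partners on the first principal component axis. For the 8 AMT genes the order was the same in 1 group and mixed in 5. This was noticed in the data and is given without a test; each pair of values comes from 1 library and shares its depth and scaling.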
